A study of Saccharomyces cerevisiae with 7 samples.

Results

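The stem loop (SL) reporter was compared with the codon-repeat reporters (CGA)12 and (AAA)12 in 2 yeast strains. The libraries were those of *dom34Δ* and of *rps3* (R116A/R117A) cells, 6 of the 7 in the series, 1 for each strain and reporter. Both strains are BY4741 derivatives that also lack *SKI2*, and all cultures grew without uracil on galactose, the sugar that switches on the *GAL1* promoter of the reporters, and raffinose. Each reporter is *PGK1* (YCR012W, a glycolytic gene on chromosome III) with a sequence that stalls ribosomes, placed at position 1040 for SL and at position 950 for 12 CGA or 12 AAA codons. The measured quantity is the number of reads whose 3’-end lies at a reporter position, so each count stands for 5’-fragments that end there. All amplified products start from a primer at position 585, and the first position with over 100 reads was 606. The comparison therefore covers the 345 positions from 606 to 950, which lie upstream of the stall in all 3 reporters, and values are shares of the reads in this span.

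No-go decay removes mRNAs on which ribosomes have stalled. Ribosomes that follow run into the stalled one, the mRNA is cut upstream of the lead ribosome, and the 5’-fragment is normally degraded from its 3’-end by the exosome together with the Ski complex. Ski2 is the helicase of that complex, so its loss preserves the 5’-fragments. Dom34 (YNL001W) takes stalled ribosomes off the mRNA, and Rps3 (YNL178W) is a small-subunit protein whose 2 mutated arginines touch the mRNA as it enters the ribosome. A stable stem loop blocks the ribosome physically, CGA is decoded poorly by its tRNA, and runs of AAA encode lysines on a slippery poly(A) stretch.

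In the span lay 4746817 reads for SL, 2113497 for (CGA)12 and 2609548 for (AAA)12 in *dom34Δ* cells. In *rps3* cells there were 1975008 for SL, 639545 for (CGA)12 and 601326 for (AAA)12. These were 94.8% to 99.3% of all reads of a library, and every one of the 345 positions had reads in all 6 libraries, with the fewest, 6, at a position of the *rps3* (CGA)12 library. As RNA of 2 or more biological replicates went into 1 library, no spread over replicates can be given and no test between reporters within a strain was possible. A test over both strains together was not run. Intervals (95%, Wilson for shares and Newcombe for differences) cover counting error only. Differences below are therefore differences between libraries. The amplified reads carry no molecular identifiers and are not independent molecules. Since the counts cover *PGK1* alone, they cannot be used to check the strain labels. The cells also express endogenous *PGK1*, and the span lies upstream of the inserts. Whether ends of the endogenous mRNA were kept apart from those of the reporter is not given in the sources used here. A fragment that ends at a given position gives a product of the same length in every reporter, because primer and upstream sequence are shared.

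The 3’-ends of SL lay farther upstream on *PGK1* than those of the codon repeats, although its stall lies 90 nt farther downstream. In *dom34Δ* cells the median end was at position 736 with SL, 814 with (CGA)12 and 818 with (AAA)12. In *rps3* cells it was at 766 with SL, 863 with (CGA)12 and 854 with (AAA)12. The SL median thus preceded that of the codon repeats by 78 and 82 nt in *dom34Δ* cells and by 97 and 88 nt in *rps3* cells. The upstream part of the span, positions 606 to 778, held 62.7% of the SL reads of *dom34Δ* cells, against 34.9% with each codon repeat. In *rps3* cells it held 53.8% with SL, 23.3% with (CGA)12 and 28.0% with (AAA)12. Counting all SL reads up to the stem loop itself left the *dom34Δ* median at 736 and put that of *rps3* cells at 772.

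**Figure D1:**
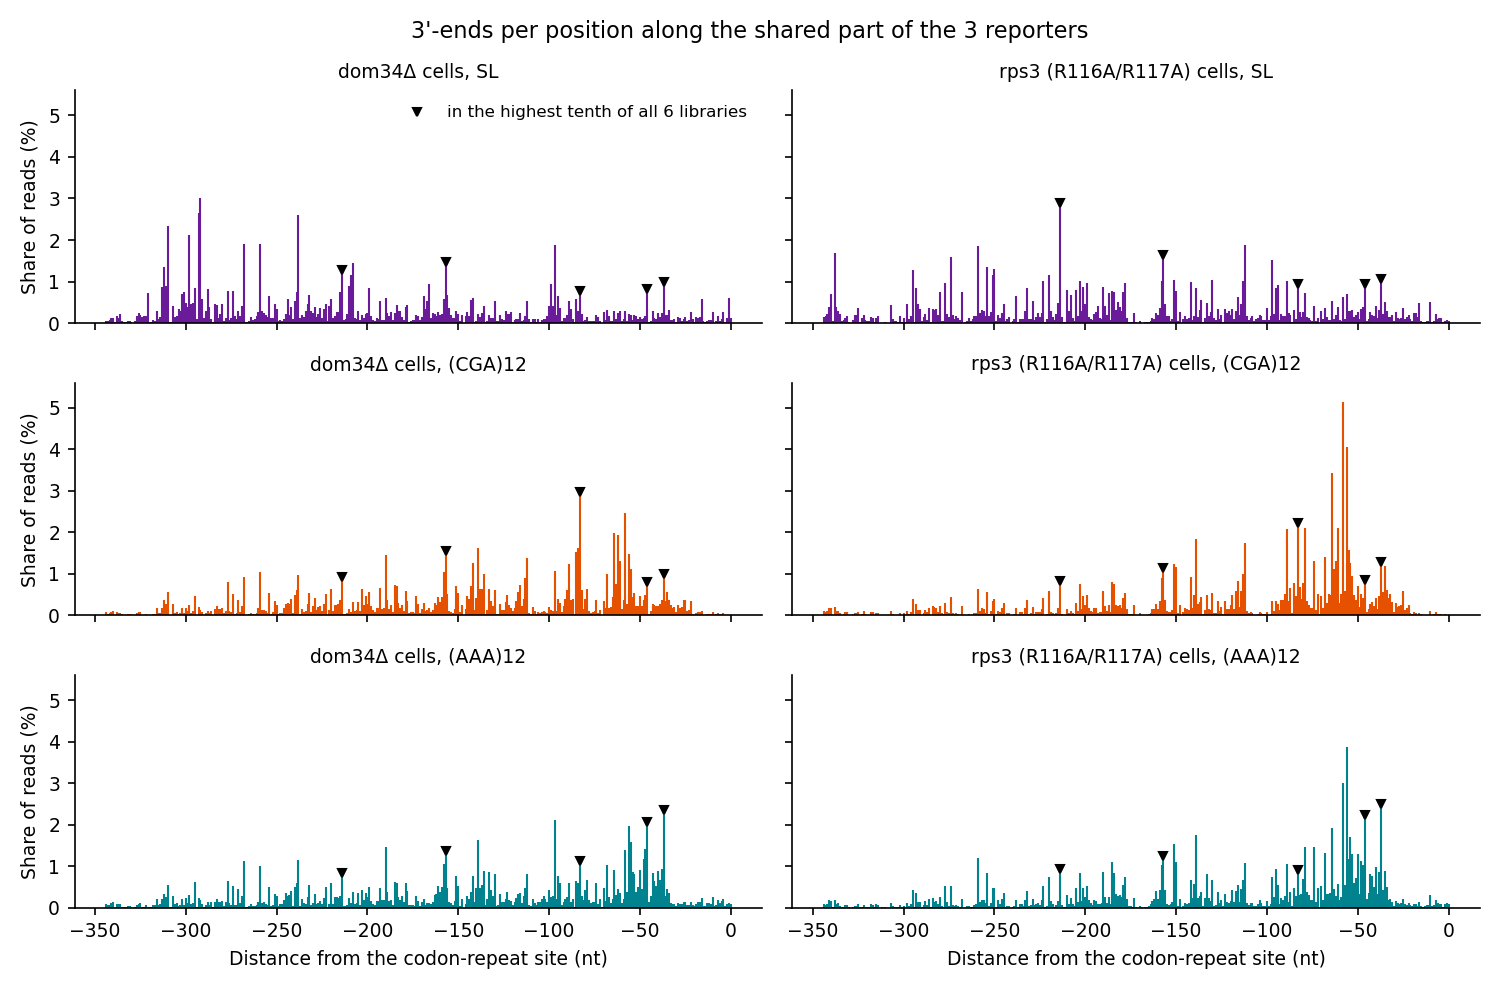
Share of the span reads (%) at each position against the distance from the codon-repeat site (nt), for SL (top row), (CGA)12 (middle) and (AAA)12 (bottom) in *dom34Δ* (left) and *rps3* cells (right), 1 library each. Triangles mark the 5 positions among the 34 highest of all 6 libraries. The tallest lines of both SL libraries stand over 200 nt upstream of the codon-repeat site, and those of the codon repeats stand within 100 nt of it.

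SL had a lower share than both repeats in the 100 nt just upstream of the codon-repeat site. This stretch, positions 851 to 950, lies 90 to 189 nt upstream of the stem loop. In *dom34Δ* cells it held 20.8% of the SL reads, 39.9% of the (CGA)12 reads and 42.0% of the (AAA)12 reads. SL was lower by 19.1 percentage points than (CGA)12 (interval -19.2 to -19.0) and by 21.2 points than (AAA)12 (-21.3 to -21.2). In *rps3* cells the shares were 25.1% for SL, 55.4% for (CGA)12 and 51.0% for (AAA)12, with differences of -30.3 (-30.4 to -30.2) and -25.9 points (-26.0 to -25.8). The share was 1.92 to 2.21 times as high with a codon repeat as with SL in the 4 comparisons.

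Most of this difference lay in the 50 nt from 851 to 900. Their share was 12.2% with SL, 30.4% with (CGA)12 and 24.8% with (AAA)12 in *dom34Δ* cells, and 14.9% with SL, 43.3% with (CGA)12 and 33.6% with (AAA)12 in *rps3* cells. Over the next 50 nt, 901 to 950, the reporters differed less, and differently for the 2 repeats. There SL had 8.56% in *dom34Δ* cells against 9.46% for (CGA)12 and 17.2% for (AAA)12, and in *rps3* cells 10.2% against 12.1% and 17.4% in the same order. The difference of SL from (CGA)12 in this window alone was -0.90 points in *dom34Δ* and -1.85 points in *rps3* cells.

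In the last 30 nt before the codon-repeat site, a stretch about as long as the mRNA that 1 ribosome covers, the direction was the opposite. These positions held 4.14% of the SL reads, 2.86% of the (CGA)12 reads and 3.38% of the (AAA)12 reads in *dom34Δ* cells, and 4.24%, 2.93% and 2.93% in *rps3* cells. SL was higher by 1.29 points than (CGA)12 and by 0.76 points than (AAA)12 in *dom34Δ* cells, and by 1.31 points than either repeat in *rps3* cells. The gain in SL was not general against (AAA)12. Of the 30 positions, 3 were 2-fold higher and 4 lower in SL than in (AAA)12 in *dom34Δ* cells, and 4 higher and 1 lower in *rps3* cells, against 14 higher and 4 lower for (CGA)12 in *dom34Δ* cells and 16 higher and 2 lower in *rps3* cells. Position 949 held 0.61% of the SL reads of *dom34Δ* cells, 0.014% of the (CGA)12 reads and 0.11% of the (AAA)12 reads. Without it the *dom34Δ* differences were 0.69 points for (CGA)12 and 0.26 points for (AAA)12.

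Upstream of position 750 the order was SL over both repeats in every window. The window from 651 to 700 held 24.5% of the SL reads of *dom34Δ* cells, against 9.12% with (CGA)12 and 9.88% with (AAA)12. In *rps3* cells it held 18.7% with SL, against 6.80% with (CGA)12 and 8.66% with (AAA)12. The first 45 positions, 606 to 650, held 12.6% with SL, 3.74% with (CGA)12 and 4.36% with (AAA)12 in *dom34Δ* cells, and 7.74%, 2.46% and 2.33% in *rps3* cells. Relative to the repeats, SL thus had 2.89 to 3.37 times the share in this far window. At 701 to 750 the ratio of SL to a repeat was 1.48 and 1.53 in *dom34Δ* cells and 2.34 and 1.95 in *rps3* cells.

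**Figure D2:**
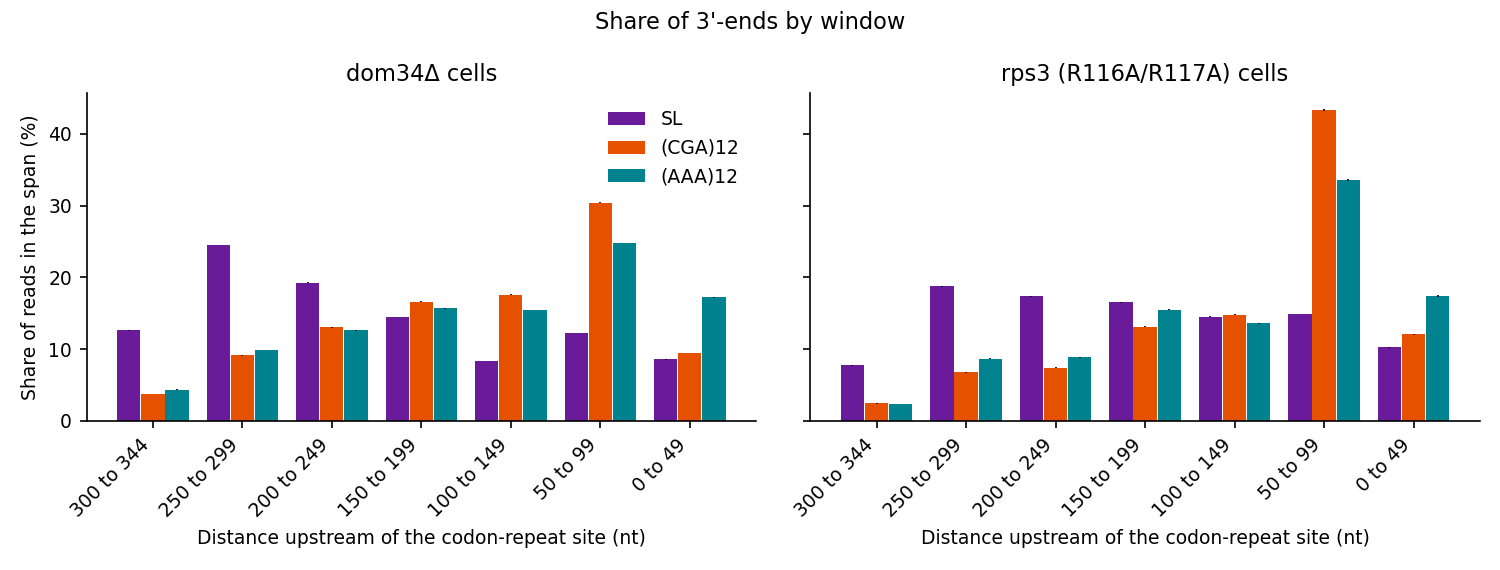
Share of the span reads (%) in windows of 50 nt (45 nt for the farthest), by distance upstream of the codon-repeat site, in *dom34Δ* (left) and *rps3* cells (right). Bars are 1 library each, with 95% Wilson intervals that cover counting error only. SL is highest in the 3 farthest windows, and the codon repeats peak at 50 to 99 nt, with 30.4% and 43.3% for (CGA)12.

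The largest cumulative lead of SL lay at different places in the 2 strains. In *dom34Δ* cells the cumulative share of SL was ahead of that of the repeats by most at position 743, by 31.4 points for (CGA)12 and 30.04 points for (AAA)12. In *rps3* cells the largest lead was at position 856, with 32.9 points for (CGA)12 and 27.01 points for (AAA)12. Between these places, at 801 to 850, *dom34Δ* cells had 8.37% with SL against 17.6% with (CGA)12 and 15.5% with (AAA)12. In *rps3* cells this window held 14.5% with SL, 14.8% with (CGA)12 and 13.6% with (AAA)12. The difference of SL in it was -0.27 points for (CGA)12 and 0.92 points for (AAA)12 in these cells. Its lead was thus nearly level over this window, and position 856 is not a sharp turning point. The difference between the strains was not tested.

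Single positions moved in both directions, with more gains than losses in SL except against (AAA)12 in *dom34Δ* cells. In *dom34Δ* cells, 92 of the 345 positions (26.7%) were at least 2-fold higher in SL than in (CGA)12 and 81 (23.5%) were 2-fold lower. Against (AAA)12, 67 (19.4%) were higher and 80 (23.2%) lower. In *rps3* cells, 142 positions (41.2%) were higher in SL than in (CGA)12 and 50 (14.5%) lower, and against (AAA)12 97 (28.1%) were higher and 49 (14.2%) lower. Both comparisons of a strain use the same SL library. The median log2 fold over the 345 positions was 0.13 for (CGA)12 and -0.01 for (AAA)12 in *dom34Δ* cells. In *rps3* cells it was 0.75 and 0.50, so the folds there were shifted towards SL as a whole. Shares of a library have a fixed total, so a lower share at some positions means a higher share at others. The counts therefore do not give gains particular to single positions. Of the positions 2-fold lower in SL, 47 and 44 lay in the last 100 nt in *dom34Δ* cells for (CGA)12 and (AAA)12, and 47 and 43 in *rps3* cells. Upstream of position 701 no position was 2-fold lower in SL in any of the 4 comparisons.

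**Figure D3:**
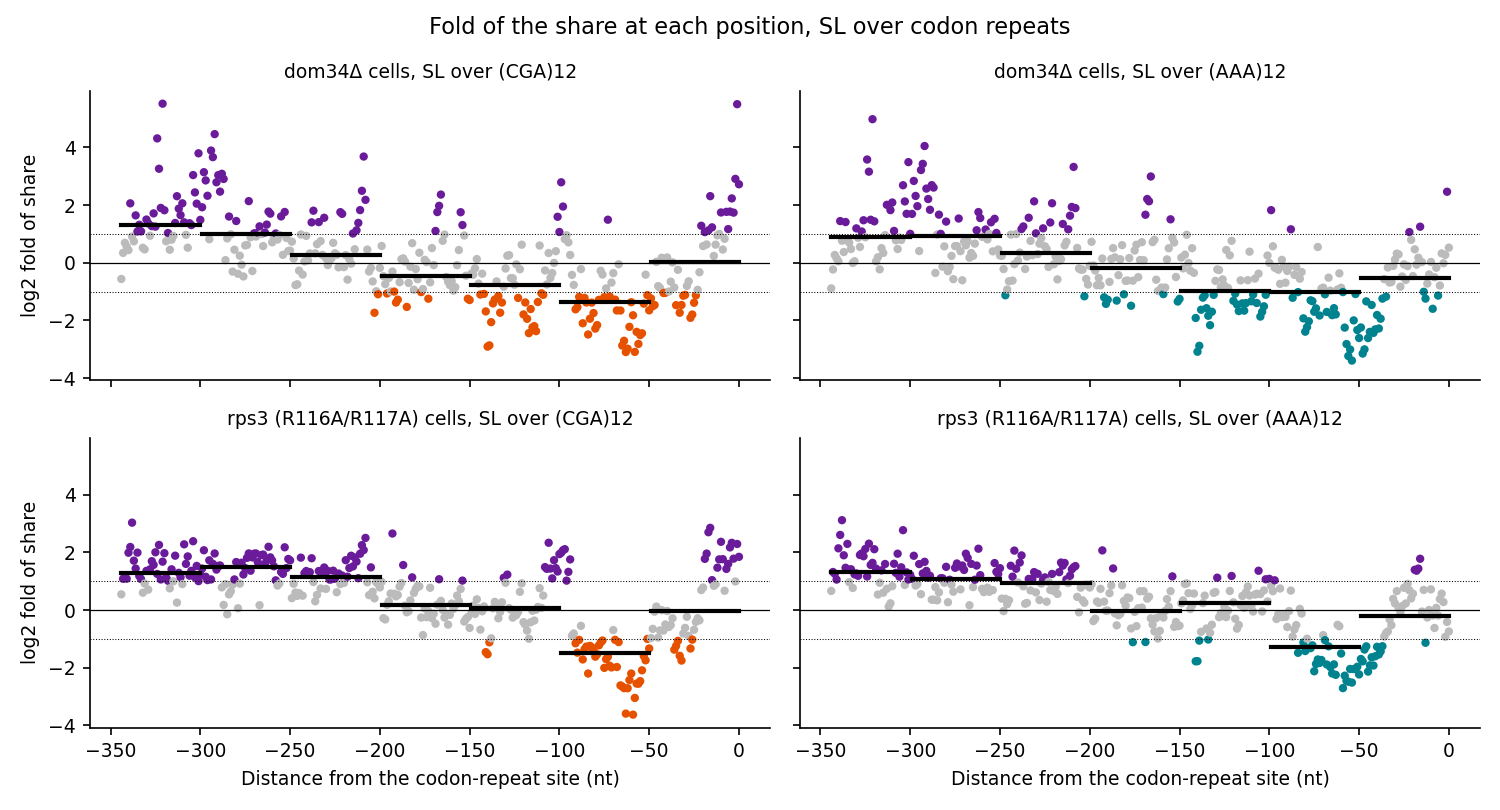
Log2 fold of the share at each position, SL over (CGA)12 (left) and SL over (AAA)12 (right), against the distance from the codon-repeat site (nt), in *dom34Δ* (top) and *rps3* cells (bottom). Each point is 1 position, coloured where it is at least 2-fold higher or lower in SL (dotted lines), and black bars are the medians of the windows. The medians are -1.37, -1.02, -1.51 and -1.29 at 50 to 99 nt, reading along the rows, and between 0.88 and 1.32 in the farthest window.

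The window accounted for part of the spread of the folds only. Window means took up 39.6% of the variance of the log2 fold for (CGA)12 and 40.9% for (AAA)12 in *dom34Δ* cells, and 50.5% and 55.7% in *rps3* cells. The remainder lay between positions within a window.

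Of the positions that lost most in SL, most lay in 1 short stretch 54 to 63 nt upstream of the codon-repeat site. All 5 with the largest loss against both repeats in *rps3* cells lay 56 to 63 nt upstream of the codon-repeat site, and 3 of the 5 in *dom34Δ* cells lay at 54 to 56 nt. Position 892 held 0.62% of the SL reads of *rps3* cells, 5.13% of the (CGA)12 reads and 3.01% of the (AAA)12 reads, that is 8.27 and 4.85 times as much with the repeats. It was the highest position of the *rps3* (CGA)12 library and ranked 48 with SL. In *dom34Δ* cells the same position held 0.29% with SL, 2.48% with (CGA)12 and 1.38% with (AAA)12. Position 894, the highest of the *rps3* (AAA)12 library, held 0.69% with SL, 4.05% with (CGA)12 and 3.86% with (AAA)12 in *rps3* cells. In *dom34Δ* cells it held 0.21% with SL, 1.47% with (CGA)12 and 1.97% with (AAA)12. Taken as a block, a choice made after the values were seen, positions 887 to 896 held 1.61% of the SL reads of *dom34Δ* cells, against 10.3% with (CGA)12 and 7.62% with (AAA)12. In *rps3* cells they held 2.79% with SL, 18.0% with (CGA)12 and 12.1% with (AAA)12.

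The longest uninterrupted runs of positions 2-fold lower in SL all overlapped this stretch. Against (CGA)12 the run went from 884 to 897 (14 positions) in *dom34Δ* cells and from 881 to 900 (20 positions) in *rps3* cells. Against (AAA)12 it reached closer to the repeats, from 891 to 913 (23 positions) in *dom34Δ* cells and from 890 to 913 (24 positions) in *rps3* cells. The *rps3* run against (AAA)12 held 7.46% of the SL reads and 26.8% of the (AAA)12 reads. The other 2 positions of largest loss in *dom34Δ* cells, 810 and 811, lay 140 and 139 nt upstream of the codon-repeat site. Position 811 held 0.22% of the SL reads, 1.63% of the (CGA)12 reads and 1.64% of the (AAA)12 reads there. In *rps3* cells it held 0.84% with SL, 1.83% with (CGA)12 and 1.76% with (AAA)12.

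The positions that gained most in SL lay far upstream and differed between the strains. In *dom34Δ* cells they were 629, 658, 649, 657 and 741. Position 658, the highest of that SL library and 382 nt upstream of the stem loop, held 3.01% (2.996 to 3.027) of the SL reads, 0.14% of the (CGA)12 reads and 0.18% of the (AAA)12 reads. It ranked 186 and 160 with the repeats, and SL was 22.0 and 16.5 times as high. Its neighbour 657 held 2.64% with SL, 0.21% with (CGA)12 and 0.25% with (AAA)12. The largest folds, 45.8 over (CGA)12 and 31.6 over (AAA)12, were at position 629, where SL had 0.73%, (CGA)12 0.016% and (AAA)12 0.023%. In *rps3* cells position 658 was also higher in SL, by 3.90 and 3.19 times, with a share of 0.47%. The others were higher in SL there too. For 629, 649, 657 and 741 the *rps3* ratios were 3.20, 2.00, 3.04 and 4.24 over (CGA)12. Over (AAA)12 they were 3.11, 2.08, 2.41 and 2.80.

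In *rps3* cells the positions of largest gain were 612, 757, 625, 615 and 610, so 4 of the 5 lay in the first 20 positions of the span. Position 612 held 1.68% of the SL reads, 0.21% of the (CGA)12 reads and 0.19% of the (AAA)12 reads, and SL was 8.18 and 8.68 times as high. In *dom34Δ* cells SL was 1.88 and 1.70 times as high there. At 625, 615 and 610 the *dom34Δ* ratios were 2.38, 2.12 and 1.36 over (CGA)12, and 1.84, 1.72 and 1.03 over (AAA)12. Position 757 held 0.41% with SL, 0.065% with (CGA)12 and 0.097% with (AAA)12 in *rps3* cells, and the ratio of SL to the repeats was 0.81 and 1.11 in *dom34Δ* cells.

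The profiles of SL and of the repeats resembled each other when compared at the same position of *PGK1*, and not when compared at the same distance from the stall. Across the 345 positions the Spearman correlation of SL was 0.60 with (CGA)12 and 0.61 with (AAA)12 in *dom34Δ* cells, and 0.78 and 0.81 in *rps3* cells. When the SL profile was moved by 90 nt, so that positions at the same distance from their own stall were set side by side, the correlation was 0.03 and -0.04 in *dom34Δ* cells and -0.05 and -0.08 in *rps3* cells. No shift between 1 and 90 nt brought the correlation above 0.18 in *dom34Δ* cells or 0.26 in *rps3* cells, and between 10 and 90 nt it ranged from -0.24 to 0.17 over the 4 comparisons. Neighbouring positions share a library and are not replicates, so these values describe the libraries. At the same position the reporters also share local sequence and product length, and after a shift of 90 nt they share neither. Any ends of endogenous *PGK1* counted with those of the reporter also fall at the same position in every library. What these contribute to the correlations was not tested. The 2 codon repeats, which stall at the same position, correlated at 0.91 in *dom34Δ* and 0.95 in *rps3* cells.

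**Figure D4:**
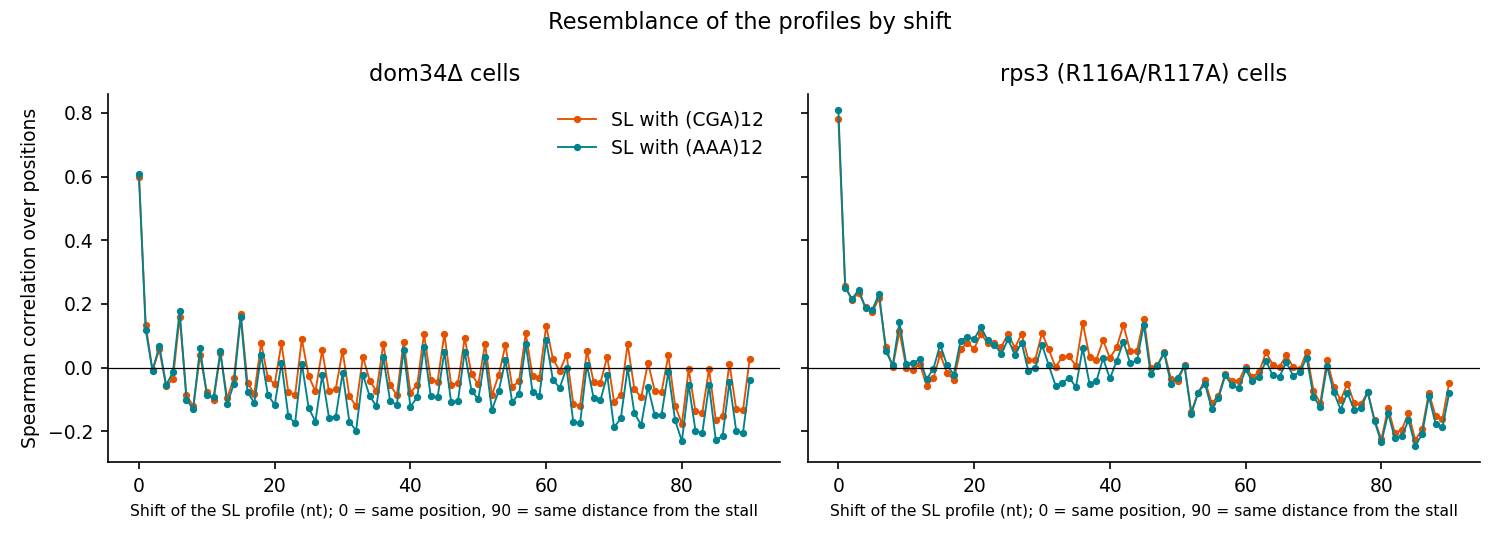
Spearman correlation over 345 positions between SL and (CGA)12 or (AAA)12 against the shift of the SL profile (nt), in *dom34Δ* (left) and *rps3* cells (right), where 0 compares the same position and 90 the same distance from the stall. All 4 curves are highest at 0, between 0.60 and 0.81, and lie between -0.08 and 0.03 at 90.

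The correlations were higher both at the same position and at the same distance once the broad slope was removed. Each position was divided by the median of the 61 positions around it, which gives its local enrichment. That of SL correlated with that of (CGA)12 at 0.70 and with that of (AAA)12 at 0.73 in *dom34Δ* cells, and at 0.87 and 0.91 in *rps3* cells. At the same distance from the stall it correlated at 0.23 and 0.20 in *dom34Δ* cells and at 0.14 and 0.12 in *rps3* cells, so the gap between both ways of comparing was narrower than with shares. In comparison, SL of *dom34Δ* cells correlated with SL of *rps3* cells at 0.55 on this scale and at 0.51 on that of the shares. SL of *rps3* cells correlated better with the repeats of *dom34Δ* cells, at 0.67 for (CGA)12 and 0.69 for (AAA)12 on this scale. On that of the shares these were 0.64 and 0.66. SL of *dom34Δ* cells correlated less with the repeats of *rps3* cells, at 0.38 and 0.43 on this scale and 0.26 and 0.30 for shares.

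Set side by side by distance from their own stall, the reporters differed further. In *dom34Δ* cells only 5.44% of these SL reads lay within 99 nt of the stall, against 39.9% with (CGA)12 and 42.0% with (AAA)12. In *rps3* cells this was 7.16% with SL, 55.4% with (CGA)12 and 51.0% with (AAA)12. At 200 to 299 nt from the stall were 38.5% of these SL reads of *dom34Δ* cells, against 22.2% with (CGA)12 and 22.5% with (AAA)12. In *rps3* cells it was 41.4% with SL, against 14.2% and 17.6% in the same order.

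Several positions stayed high with every reporter. Of the 34 highest positions of a library (10% of the span), 9 (26.5% of each list) were shared by all 3 reporters of *dom34Δ* cells and 11 (32.4%) by those of *rps3* cells. SL shared 10 of its 34 with (CGA)12 and 9 with (AAA)12 in *dom34Δ* cells, and 13 and 15 in *rps3* cells, while the 2 repeats shared 21 and 25 with each other. The positions shared in *dom34Δ* cells ranged from 682 to 913 and those in *rps3* cells from 736 to 913. Profiles smoothed over 5 points had fewer shared positions, 5 in *dom34Δ* and 6 in *rps3* cells. What ends of endogenous *PGK1* contribute to the shared positions was not tested.

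The positions among the 34 highest of all 6 libraries were 5, namely 736, 793, 867, 904 and 913. The number depends on the setting, with 2 such positions in smoothed profiles, 3 without the highest position of each library, 18 for lists of the highest 20% and 0 for lists of the highest 5%. Position 793, 247 nt from the stem loop and 157 nt from the repeats, was the most even. It held 1.47% with SL, 1.56% with (CGA)12 and 1.36% with (AAA)12 in *dom34Δ* cells, and 1.64% with SL, 1.15% with (CGA)12 and 1.26% with (AAA)12 in *rps3* cells. Its highest share was 1.42 times its lowest, and it ranked between 5 and 19 in the 6 libraries.

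Position 736 was the highest of the *rps3* SL library, 304 nt upstream of the stem loop. In *rps3* cells it held 2.90% (2.88 to 2.92) with SL, 0.82% with (CGA)12 and 0.93% with (AAA)12. In *dom34Δ* cells it held 1.29% with SL, 0.93% with (CGA)12 and 0.85% with (AAA)12. It was higher with SL in both strains, and its local enrichment, 17.7 with SL, 10.3 with (CGA)12 and 8.95 with (AAA)12 in *rps3* cells, means that it stood out from its surroundings with the repeats too.

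The other 3 were high with all reporters but favoured 1 repeat. Position 867, 83 nt from the repeats, was the highest of the *dom34Δ* (CGA)12 library. It held 0.77% with SL, 2.96% with (CGA)12 and 1.13% with (AAA)12 in *dom34Δ* cells, and 0.94%, 2.23% and 0.92% in *rps3* cells. Positions 904 and 913, 46 and 37 nt from the repeats, favoured (AAA)12 in both strains. Position 913 held 0.996% with SL, 0.99% with (CGA)12 and 2.36% with (AAA)12 in *dom34Δ* cells, and 1.05% with SL, 1.28% with (CGA)12 and 2.51% with (AAA)12 in *rps3* cells. Position 904 held 0.81% with SL, 0.80% with (CGA)12 and 2.06% with (AAA)12 in *dom34Δ* cells, and 0.94%, 0.86% and 2.25% in *rps3* cells. At both positions SL and (CGA)12 were closer to each other than either was to (AAA)12.

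**Figure D5:**
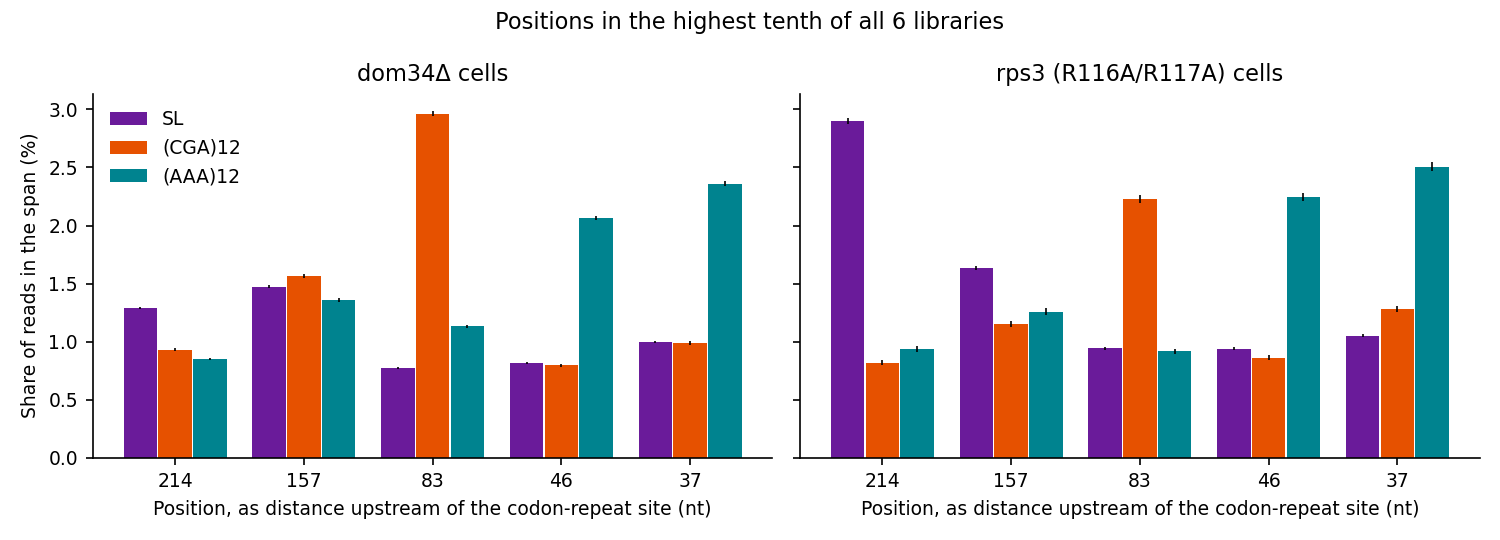
Share of the span reads (%) at the 5 positions among the 34 highest of all 6 libraries, by their distance upstream of the codon-repeat site (nt), in *dom34Δ* (left) and *rps3* cells (right). Bars are 1 library each with 95% Wilson intervals for counting error. The position at 157 nt is between 1.15% and 1.64% in all 6, that at 83 nt is highest with (CGA)12, and those at 46 and 37 nt are highest with (AAA)12.

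Positions of 1 phase of 3 held the most reads with every reporter, and more so with SL. Positions that leave a remainder of 1 when divided by 3, 115 of the 345, held 52.3% (52.2 to 52.3) of the SL reads of *dom34Δ* cells, 47.6% of the (CGA)12 reads and 48.7% of the (AAA)12 reads. In *rps3* cells they held 51.9% (51.8 to 52.0) with SL, 45.5% with (CGA)12 and 44.98% with (AAA)12. The SL library of *asc1* (R38D/K40E) cells, not part of the comparison, had 40.2%, below every codon-repeat library. All positions compared lie upstream of the inserts. Of the positions shared by all reporters, 8 of 9 in *dom34Δ* cells, 7 of 11 in *rps3* cells and 4 of the 5 common to both were of this phase, and 16 to 23 of the 34 highest positions of each library were. Which codon base the phase stands for was not settled, as the numbering of the reporter was not tied to a sequence here.

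How evenly the reads were spread over the span changed differently in the 2 strains. The effective number of positions, the exponential of the Shannon entropy, was 194.8 with SL, 191.4 with (CGA)12 and 206.4 with (AAA)12 in *dom34Δ* cells. In *rps3* cells it was 199.3 with SL, 148.7 with (CGA)12 and 168.2 with (AAA)12. The 10 highest positions held 21.3% of the SL reads of *dom34Δ* cells, against 18.6% with (CGA)12 and 17.4% with (AAA)12, and 17.0% of those of *rps3* cells, against 26.3% and 21.5%.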

How the data were processed

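Per the study's methods, an adaptor was joined to RNA 3’-ends, and the cDNA was amplified with a *PGK1* primer and sequenced as single reads. Trimming was done with cutadapt (version 1.12 per the submitters' notes) and alignment to the reporter with NovoAlign. The authors deposited, for each library, unnormalized counts of reads ending at a position. Whether PCR duplicates were removed is not given in the sources used here.

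Unlisted positions were set to 0. Counts from 606 to 950 were divided by their sum. A fold is the ratio of shares at 1 position, called at 2-fold, with a floor of 3 reads. Single positions named are those among the 34 highest of all 6 libraries, the highest of each library, and the 5 largest gains and 5 largest losses against both repeats among positions with at least 0.2% in 1 library of the strain. The comparison and its rules were chosen with earlier results of these data known. Functions were tested on simulated data. Shares, folds, shared positions and correlations were recomputed under other settings, with Python 3.11.15, NumPy 2.4.6, pandas 2.3.3, SciPy 1.17.1 and matplotlib 3.10.9. Libraries of cells with wild-type *DOM34*, *RPS3* and *ASC1* were not analysed here.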

Additional observations from a re-analysis of the deposited data

Results flagged for a closer look

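In the following cases the difference of SL from a codon repeat had opposite signs in the 2 strains. These strain differences were not tested, as there was 1 library per condition. At positions 751 to 800 the share with SL differed from that with (CGA)12 by -2.12 points in *dom34Δ* and 3.37 points in *rps3* cells, and from that with (AAA)12 by -1.17 and 0.999 points. At 801 to 850 it differed from (AAA)12 by -7.09 points in *dom34Δ* and 0.923 points in *rps3* cells. The effective number of positions differed between SL and (AAA)12 by -11.6 in *dom34Δ* and 31.1 in *rps3* cells. The share of the 10 highest positions differed between SL and (CGA)12 by 2.7 points in *dom34Δ* and -9.33 points in *rps3* cells, and between SL and (AAA)12 by 3.96 and -4.49 points.

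The SL library of *asc1* (R38D/K40E) cells, which took no part in the comparison, had reads at the positions where SL and the codon repeats differed most. It held 6.96% (6.93 to 6.99) of its span reads at 887 to 896, compared with 1.61% and 2.79% in the SL libraries of *dom34Δ* and *rps3* cells, so a low share there was not shared by all SL libraries. At 810 to 811 it held 3.37%, above the 2.06% and 2.13% of (CGA)12 and (AAA)12 in *dom34Δ* cells. At 657 to 658 it held 0.408%, against 5.65% and 1.33% in the SL libraries of *dom34Δ* and *rps3* cells. The blocks of positions were chosen after the values were seen.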

How the results depend on the processing

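Of 168 recomputed values, 89 stayed the same (within counting error, within 1.5 times for counts, or to 2 decimals for correlations), 79 moved and none reversed, over the settings and results named here. Where a value moved other than through the width of the window, the size of the list or the fold required, the cause was not tested. The settings that took SL reads up to the stem loop as the total, or local enrichment, or left out 1 position of the last 30 nt, were added after seeing the data. No paired analysis was possible because the labels give no replicate numbers that pair libraries. Every difference is already taken within a strain. With 1 library for each strain and reporter, none could be left out. Values are given for (CGA)12 and (AAA)12 in *dom34Δ* cells, then for (CGA)12 and (AAA)12 in *rps3* cells, where all 4 moved.

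The difference of SL in the share of the last 100 nt became -13.22, -15.87, -22.32 and -19.77 points with counts capped at the 95th percentile, and -20.77, -22.63, -32.26 and -27.74 with the span ending 30 nt earlier. It was -17.32, -20.07, -28.07 and -24.2 without the highest positions and -19.54, -21.66, -31.52 and -27.13 with SL reads up to the stem loop as the total. A window of 50 nt gave -0.8993, -8.67, -1.849 and -7.177, and 1 of 150 nt gave -28.32, -28.32, -30.57 and -24.99. With 5-point smoothing the *dom34Δ* differences were -19.24 and -21.39, and with thinning to the shallowest library -19.33 and -21.33. A span starting 20 nt later gave -21.36 for (AAA)12 in *dom34Δ* cells, and -29.74 and -25.2 in *rps3* cells.

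In the last 30 nt before the codon-repeat site, the difference of SL was 0.6905, 0.2603, 0.8902 and 0.9622 points without the position of the largest gain.

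The correlation at the same position minus that at the same distance was 0.5417, 0.6396, 0.8685 and 0.9495 with smoothing, 0.6881, 0.7173, 0.9163 and 0.9487 with the span ending earlier, and 0.4836, 0.5669, 0.8462 and 0.9125 with it starting later. It was 0.576, 0.6442, 0.8078 and 0.8668 without the highest positions and 0.465, 0.5365, 0.7314 and 0.7917 for local enrichment. Capping gave 0.6447 for (AAA)12 in *dom34Δ* cells. Pearson correlation of log2(count + 1) gave 0.6968 for that comparison, and 0.8778 and 0.9692 in *rps3* cells.

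At 3-fold, positions higher in SL were 57, 37, 68 and 32, and those lower were 37, 39, 26 and 29. At 1.5-fold, 103 in *dom34Δ* and 162 in *rps3* cells were higher in SL than in (AAA)12. The positions shared by all reporters were 5 in *dom34Δ* cells, 6 in *rps3* cells and 2 in both with smoothing. With lists of the highest 5% they were 3, 2 and 0, and with the highest 20% they were 31, 37 and 18, in the same order. Without the highest positions 3 were common to both strains.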
